A study of Caenorhabditis elegans with 2 samples.

Results

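The regions described here stand just below the final peak set of a chromatin immunoprecipitation and sequencing (ChIP-seq) experiment on TRA-4 in early embryos of Caenorhabditis elegans. They are the entries that follow the first 394 and end at rank 1000 in the authors' pooled list of the ce11 build, ordered by the signal value of each region, and make up 6.27% of its 9660 regions. The members were chosen by that pooled signal value, so signal and rank are given as a description with no test. The 394 stronger entries are the peaks that the authors kept by the irreproducible discovery rate (IDR), which compares the ranks of a region across replicates. For comparison, the members are set beside the next 1000 regions of the list and beside the 7660 regions after those, called the tail here. The pooled list was deposited as input to that step and holds background as well as enriched regions, so membership here does not mean that a region is bound.

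The animals were of strain OP640, which carries the unc-119 allele tm4063 on chromosome III and the transgene wgIs640. The transgene expresses TRA-4 with a GFP-FLAG tag at its C terminus, and both replicates carry it. Embryos of both sexes were collected together by bleaching, chromatin was sheared by sonication and precipitated with an antibody against GFP, and the labels give 2 biological replicates of 1 group. No untagged strain was analysed here, the tagged protein is a transgene, and whole embryos mix all cell types.

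TRA-4 has zinc fingers, resembles the human transcription factor PLZF and favours female over male fate in the worm. Transfer RNA (tRNA) genes, which recur in the results, are short genes read by RNA polymerase III from promoter elements inside the gene, the A box and the B box. Protein-coding genes are read by RNA polymerase II, and factors that act on them often bind a short way upstream of the start.

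A first set of sequences shows what a member at a tRNA gene looks like. Each window is the summit base with 50 bases to each side, on the strand of the gene, in ce11 (WBcel235), with the tRNA gene in capitals. The windows were chosen, after their values were seen, from the strongest members with the summit inside a tRNA gene.
Y55F3BR.t1 (Glu), chrIV:842769-842869, + strand: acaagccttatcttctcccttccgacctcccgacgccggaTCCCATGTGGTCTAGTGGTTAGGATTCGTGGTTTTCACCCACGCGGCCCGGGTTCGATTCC
F11H8.t1 (Thr), chrIII:7030560-7030660, - strand: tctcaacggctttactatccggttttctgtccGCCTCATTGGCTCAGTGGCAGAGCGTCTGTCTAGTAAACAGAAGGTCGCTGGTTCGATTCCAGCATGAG
C02D4.t1 (Ile), chrX:15297469-15297569, + strand: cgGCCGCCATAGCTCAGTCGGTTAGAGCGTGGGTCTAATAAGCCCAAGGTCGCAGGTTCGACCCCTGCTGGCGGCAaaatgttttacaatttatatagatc
T25E4.t1 (Val), chrII:5577199-5577299, - strand: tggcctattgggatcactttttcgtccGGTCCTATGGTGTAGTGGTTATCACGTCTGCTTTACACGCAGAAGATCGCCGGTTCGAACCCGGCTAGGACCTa
The first 2 windows hold the B box core GTTCGANTC, where N is any base, and the other 2 do not. Only these exact letters were searched, so a window without them is not shown to lack a B box. The summits lay 10, 18, 48 and 23 bp downstream of the gene starts, in the order printed. They ranked 414, 424, 432 and 456 in the pooled list, 332, 836, 497 and 334 in replicate 1 and 833, 484, 581 and 870 in replicate 2.

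A second set shows windows of the same length at protein-coding starts. Capitals mark the 3 6-base sequences, read on either strand, whose share in members differed most from that in flanking sequence. These were AAGAGA first, then ACGCGC, and AGAGAG as the last of the 3. These windows too were chosen after their values were seen, because they hold such letters. The summit named for hsp-6 lay nearer to the start of C37H5.5 (-172 bp) than to that of hsp-6 (-428 bp).
mrck-1, chrV:6267558-6267658, - strand: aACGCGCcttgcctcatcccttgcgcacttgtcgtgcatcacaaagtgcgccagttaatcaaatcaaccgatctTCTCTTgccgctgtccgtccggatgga
rps-1, chrIII:4475605-4475705, + strand: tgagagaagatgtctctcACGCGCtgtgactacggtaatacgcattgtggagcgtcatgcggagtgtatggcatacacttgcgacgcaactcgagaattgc
ife-4, chrX:1103784-1103884, + strand: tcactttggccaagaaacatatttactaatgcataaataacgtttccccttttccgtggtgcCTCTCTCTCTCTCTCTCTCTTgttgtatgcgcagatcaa
hsp-6, chrV:4827138-4827238, - strand: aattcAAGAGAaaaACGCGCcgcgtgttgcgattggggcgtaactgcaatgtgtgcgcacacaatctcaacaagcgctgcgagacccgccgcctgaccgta
In these windows the repeats at ife-4 are the longest unbroken run of such letters, and hsp-6 and mrck-1 each hold both an ACGCGC and an AAGAGA match.

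The members form a narrow band of signal without a step at either end. Their signal ran from 101.57 at the first member down to 76.76 at rank 1000, with a median of 85.1, while the median of the IDR set was 134.7. The last IDR entry (X, 12503459 to 12503938) had 101.61 and the first member (V, 6267368 to 6267847) had 101.57. At the lower end the signal was 76.76 at rank 1000 (I, 14756201 to 14756680) and 76.68 at the entry after it (III, 13070683 to 13071162). Every member was 480 bp wide and had its summit at the middle, so the width carries no information about the extent of enrichment. The authors' q-value was under 0.05 for 141 members, where 5.54% of the pooled list passed, and these were the 141 strongest, down to rank 535. The lowest q-value among the members was 0.0181, at rank 416, so none was under 0.01. In the ce10 build the IDR set ended earlier, at rank 373 with a signal of 103.3, and rank 394 there had 101.61.

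**Figure D1:**
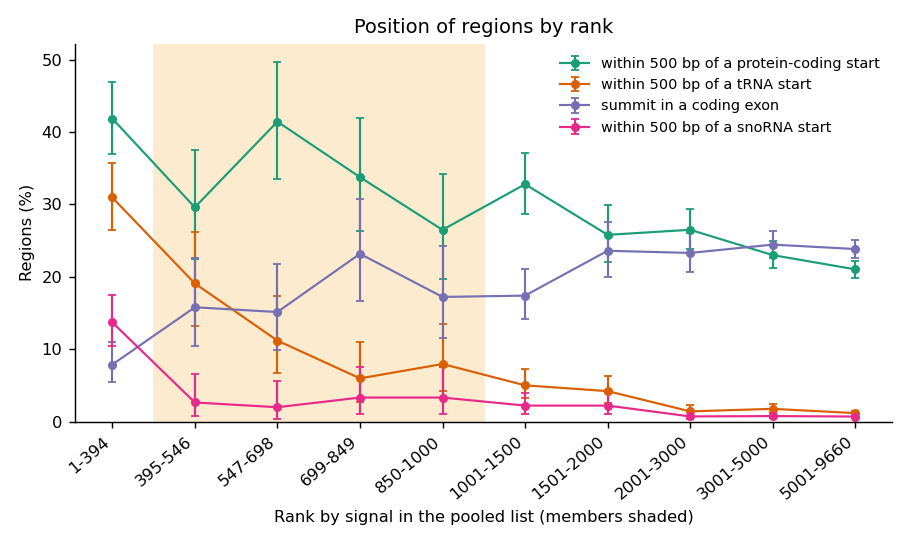
Share of regions in percent (y axis) by rank in the pooled list (x axis, members shaded), with points for each share and bars for the exact 95% interval. The tRNA share is 31.0% in the IDR set and 19.1%, 11.2%, 5.96% and 7.95% in the 4 groups of members from the strongest down. The coding exon share is 7.87% in the IDR set and 15.8%, 15.1%, 23.2% and 17.2% in the same groups.

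Transfer RNA genes were the most frequent class of small RNA gene at the members. Genes annotated as ncRNA, a type kept apart from these classes here, were near more members. Their starts were within 500 bp of 102 member summits (16.8%, 13.9 to 20.1). This share was 38.6% in the IDR set, 14.7% in the next 1000 and 12.1% in the pooled list. The intervals of the members and the next 1000 overlap there. A member can be near both an ncRNA and a tRNA start. A summit lay within 500 bp of a tRNA start in 67 members (11.1%, exact 95% interval 8.67 to 13.8), where 3.50% of all pooled regions did so. The share was 31.0% (26.4 to 35.8) in the IDR set, 4.60% (3.39 to 6.09) in the next 1000 and 1.34% (1.10 to 1.63) in the tail, and 0.533% of the genome lies that near a tRNA start. The 4 intervals do not overlap. With the members divided by rank into 4 groups of like size, the counts from the strongest group down were 29 of 152, 17 of 152, 9 of 151 and 12 of 151, as the plot of shares by rank shows. The 95% intervals of these shares overlap between every pair of neighbouring groups, so no single step is resolved. Only the strongest group and the group with 9 of 151 have intervals that do not overlap.

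The strongest members at tRNA genes were C02B4.t1 (rank 407), F19H6.t1 (rank 412), Y55F3BR.t1 (rank 414), C30E1.t1 (rank 415) and Y49E10.t1 (rank 420). At F19H6.t1 (X, 12367489 to 12367968) the summit lay 16 bp upstream of the start, with ranks 373 and 661 in replicates 1 and 2. At C30E1.t1 (X, 16928147 to 16928626) it lay 46 bp upstream, with ranks 321 and 492. At C02B4.t1 (X, 12661258 to 12661737) the summit was 334 bp downstream of the start and only 225 bp from an IDR summit, and the matching regions ranked 68 and 85. The first 2 of these 3 members stand over 1000 bp from any IDR summit, and the third does not.

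Counted by gene, 75 of the 612 annotated tRNA genes (12.3%) had a member near the start, and 67 of these had no IDR summit. Together with the 131 tRNA genes of the IDR set, 198 of 612 (32.4%, 28.7 to 36.2) were reached by rank 1000. By the amino acid carried, and among amino acids with at least 12 tRNA genes, the share reached ran from 3 of 20 for histidine and 5 of 27 for glutamine to 13 of 20 for methionine and 10 of 13 for cysteine. The 1 selenocysteine tRNA gene and the 5 with no amino acid in the annotation were not reached. Of the 10 cysteine tRNA genes reached, 5 were reached only by members. Many tRNA genes are copies of one another: 65 of the 75 genes with a member, and 469 of all 612, have a sequence that another tRNA gene also has in full. How the authors placed reads that fit several copies is not stated, so which copy gave the signal is uncertain.

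Summits of the members were spread more widely around tRNA starts than those of the IDR set. Their median position was 39 bp past the start, with quartiles of 2 and 128.5 bp. Of these members 46 of 67 (68.7%, 56.2 to 79.4) were within 100 bp of it, and 25 lay inside the tRNA gene. In the IDR set the median was 18.5 bp, and 113 of 122 (92.6%, 86.5 to 96.6) were within 100 bp. Without the members within 1000 bp of an IDR summit, the median was 23 bp and 46 of 58 (79.3%) were within 100 bp. All 9 that this removes were thus farther than 100 bp from the start and made up part of the wider spread. The quartiles of the rest were -5.5 and 81.75 bp, against 6.25 and 45.75 bp in the IDR set. No interval was computed for the 79.3%, so its separation from the IDR share is not shown. In the next 1000, 26 of 46 (56.5%) were within 100 bp, and in the tail 40 of 103 (38.8%, 29.4 to 48.9).

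**Figure D2:**
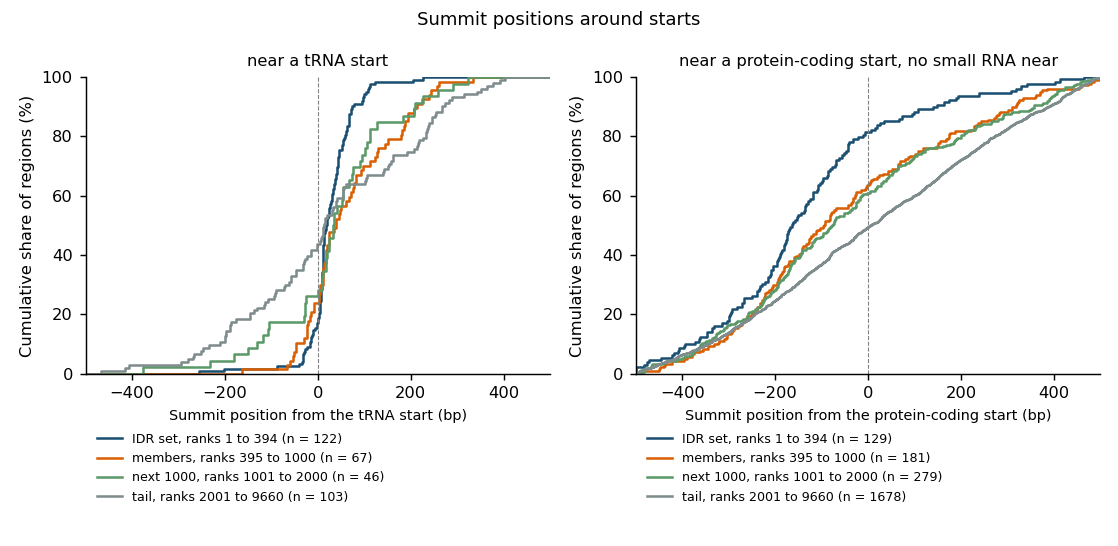
Cumulative share of regions in percent (y axis) by the position of the summit from the start in bp (x axis, negative is upstream), for tRNA starts and for protein-coding starts away from small RNAs, with 1 line for each range of ranks. The members lie between the IDR set and the tail at protein-coding starts: 63.5% of their summits are upstream, where the IDR set has 81.4%, the next 1000 have 60.9% and the tail 49.2%.

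The B box core GTTCGANTC, searched on both strands within 50 bp of the summit, was present in 12 members (1.98%, 1.03 to 3.43), where 0.87% of pooled regions held it. It was in 8.38% of the IDR set, 0.80% of the next 1000 and 0.405% of the tail. None of the 515 members away from tRNA, snoRNA and snRNA starts held it, which allows a share of up to 0.714%. Of all such pooled regions 0.285% held it, so the count of 0 is not set apart from the background. All 12 matches were thus at members near these small RNA genes. The search took these exact letters only, so it does not count the tRNA genes that have a B box.

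Small nucleolar RNA (snoRNA) genes, whose products guide the modification of other RNAs, were less frequent. They were near 17 members (2.81%, 1.64 to 4.45), where 1.52% of pooled regions were near one, against 13.7% (10.5 to 17.5) in the IDR set and 2.20% (1.38 to 3.31) in the next 1000. The intervals of the members and the next 1000 overlap. Within 250 bp of a snoRNA start there were only 10 members (1.65%). From the strongest of the 4 groups of members down the counts were 4, 3, 5 and 5. Of the 17 member summits, 9 were upstream of the snoRNA start, at a median of -8 bp with quartiles of -257 and 106 bp. In the next 1000 regions 12 of 22 were upstream, and in the IDR set 45 of 54, with quartiles of -66 and -20.25 bp. The strongest were at Y102A11A.16 (rank 403), JC8.15 (rank 436), Y49E10.36 beside the histone gene his-72 (rank 507), F25H5.9 (rank 546) and ZK546.18 (rank 615). The last of these (II, 4942196 to 4942675) had its summit inside the snoRNA gene and ranked 625 and 734 in the replicates.

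Genes annotated as small nuclear RNA (snRNA), a class that includes splicing and spliced leader RNAs, were near 7 members (1.16%, 0.466 to 2.37), where 0.518% of pooled regions and 4.06% of the IDR set were near one. Of the 5 strongest, 4 lay between 199 and 242 bp from an IDR summit: the members at sup-39 (rank 408), at the spliced leader gene sls-2.3 (rank 428), at C52E4.8 (rank 664) and at C28A5.7 (rank 762). The exception was R07E5.16 (rank 421, III, 4413866 to 4414345), 12750 bp from any IDR summit, with rank 3794 in replicate 1 and 373 in replicate 2. In all, 91 members (15%, 12.3 to 18.1) were near a tRNA, snoRNA or snRNA start, where 5.50% of pooled regions were and 48.2% of the IDR set.

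MicroRNA genes were near 6 members (0.990%, 0.364 to 2.14), a share whose interval takes in the 0.642% of pooled regions and the 1.1% of the next 1000. The cluster of the mir-35 family, which embryos need to develop, had 1 of them. This member (rank 682, II, 11537513 to 11537992) had its summit inside mir-36, within 500 bp of mir-35, mir-36, mir-37, mir-38, mir-39 and mir-40, and ranked 611 and 423 in the replicates. The others of the 5 strongest were at mir-62 (rank 595), mir-8201 (rank 797), mir-86 (rank 832) and mir-87 (rank 877). At mir-86 the matching regions ranked 372 in replicate 1 and 5045 in replicate 2, so the replicates differ there. None of the 9660 pooled regions, and so no member, was near any of the 20 ribosomal RNA genes. The 13 members near a piRNA start (2.15%, 1.15 to 3.64) were at the level of the pooled list, where 2.46% of regions were near one and 4.83% of the genome lies that near.

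Protein-coding starts had a summit within 500 bp in 199 members (32.8%, 29.1 to 36.7), where 24.5% of pooled regions did and 18.8% of the genome lies that near. The IDR set had 41.9% (37 to 46.9), the next 1000 had 29.3% (26.5 to 32.2) and the tail 22.3% (21.3 to 23.2). The interval of the members lay above that of the tail and overlapped that of the next 1000. The share was also taken over the regions away from tRNA, snoRNA and snRNA starts, since these differ in number between the ranges. There 181 of 515 members (35.1%, 31.0 to 39.4) were near a protein-coding start, against 63.2% (56.2 to 69.9) of the IDR set and 30.1% (27.1 to 33.1) of the next 1000. Of the 181 summits, 115 (63.5%, 56.1 to 70.5) were upstream, at a median of -95 bp. The next 1000 had 170 of 279 (60.9%) upstream and a median of -77 bp. The IDR set had 81.4% (73.6 to 87.7) upstream and a median of -163 bp, and in the tail 49.2% (46.7 to 51.6) were upstream with a median of 8 bp.

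Of 19973 protein-coding genes, 240 (1.2%) had a member near the start and 196 (0.981%) had an IDR summit. Both were near 11 genes, 4.58% of the former and 5.61% of the latter. Since the members are by rule other regions than the IDR set, these counts describe the list and nothing is read from them. A single region served several genes in many cases: 47 of the 199 members lay near 2 or more protein-coding starts, 43 of them near starts on both strands. Such a region cannot be assigned to one gene.

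By annotation, 222 member summits (36.6%, 32.8 to 40.6) were in no annotated gene, where 31.3% of pooled regions were. Introns held 178 (29.4%, 25.8 to 33.2), where they held 35.1% of pooled regions. Coding exons held 108 (17.8%, 14.9 to 21.1), where they held 22.5% of pooled regions. The coding exon share was 7.87% (5.41 to 11.0) in the IDR set, 20.5% (18 to 23.1) in the next 1000 and 23.9% (23 to 24.9) in the tail. A further 26 members (4.29%) were in 5′ UTRs, against 2.01% of pooled regions, and 25 (4.13%) in tRNA genes, against 1.56%. Other noncoding RNA genes held 22 (3.63%), against 2.01%, and 3′ UTRs 17 (2.81%), against 3.91%. The GC content within 50 bp of the summit had a median of 42.6%, between 49.5% in the IDR set and 41.6% in the next 1000, and the genome as a whole has 35.4%.

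The 15 strongest members, down to rank 409, covered varied places. The first, also the strongest on V, lay at -321 bp from mrck-1, a gene for a protein kinase related to mammalian MRCK, with ranks 436 and 714 in the replicates. Rank 396, the strongest on I (5986145 to 5986624), lay at -103 bp from C06A5.3. Rank 397, the strongest on III, was at -2399 bp from syx-16, a syntaxin gene, inside a noncoding RNA gene. Rank 398, the strongest on II (5587196 to 5587675), was in a coding exon of lys-8, a lysozyme gene. Rank 403, the strongest on X, was at -429 bp from igcm-4 and near the snoRNA gene already named. Rank 404, the strongest on IV (13385963 to 13386442), was at -112 bp from Y62E10A.20. The other nearest genes were hsp-110, T02G5.15, srg-21, C26C6.8, alh-9, cysl-2, C02B4.3, eif-2Bgamma and lin-52.

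Among the gene lists, cytosolic ribosomal proteins, translation factors, proteasome subunits, heat shock proteins and histones each had 3 to 7 genes with a member. Aminoacyl-tRNA synthetases had 0 of 32 (0 to 10.9%) and mitochondrial ribosomal proteins 1 of 70 (1.43%, 0.0362 to 7.7). Both intervals take in the 1.2% of all protein-coding genes and overlap those of the lists named before them. Cytosolic ribosomal protein genes had a member in 7 of 81 (8.64%, 3.55 to 17), where 1.2% of all protein-coding genes had one. The strongest was rps-1, with the summit at -263 bp (rank 526, III, 4475415 to 4475894) and ranks 695 and 725 in the replicates. It was followed by rpl-12 at -77 bp (rank 547) and rpl-7A at -94 bp (rank 617). Their regions are also near the starts of lin-54 and set-21, in that order. A small RNA start was also near 3 of the 7 genes, rpl-7A, rps-23 and rps-13. Of the 81 genes, 10 had an IDR summit.

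Translation factors had 4 of 42 (9.52%, 2.66 to 22.6). These included eef-2, which encodes elongation factor eEF-2, with the summit at -27 bp (rank 462, replicate ranks 938 and 488). The next were ife-4, a gene for a cap-binding protein of the eIF4E family, at -378 bp (rank 572, replicate ranks 2359 and 546), and eif-3.I, for a subunit of initiation factor eIF3, at -222 bp (rank 692, replicate ranks 710 and 1312). The regions of eef-2 and eif-3.I are also near the starts of clsp-1 and abtm-1, in that order. Proteasome subunits had 3 of 33 (9.09%, 1.92 to 24.3) and none in the IDR set. They were rpn-3 at -259 bp (rank 399), rpt-1 at -193 bp (rank 612) and rpn-11 at 68 bp (rank 925). All 3 encode parts of the regulatory particle, and each was uneven between the replicates, at 2440 and 311 for rpn-3, 310 and 2970 for rpt-1 and 3053 and 1549 for rpn-11.

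Heat shock, chaperonin and J protein genes had 7 of 59 (11.9%, 4.91 to 22.9), and 5 had an IDR summit. The strongest was hsp-110, for a chaperone of the Hsp110 family, at -185 bp, but its region is the one named for rpn-3, which lies between the starts of both genes. The chaperonin subunit genes cct-6 (rank 405, -315 bp) and cct-7 (rank 559, -412 bp) came next. The cct-6 region is shared with alh-9. The cct-7 region is shared with T10B5.4, whose start is nearer (-27 bp), and its summit lay 986 bp from an IDR summit.

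Histone genes had 6 of 81 (7.41%, 2.77 to 15.4), and 12 had an IDR summit. The divergent pair his-1 and his-2 shared a member at rank 471, and his-72, a gene for the variant histone H3.3, had one at rank 507 with a snoRNA start near it. The member at his-37 (rank 668) lay 199 bp from an IDR summit and that at his-62 (rank 684) lay 296 bp from one. Core histone genes are near-identical copies, so their values are uncertain for the same reason as those of tRNA genes.

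**Figure D3:**
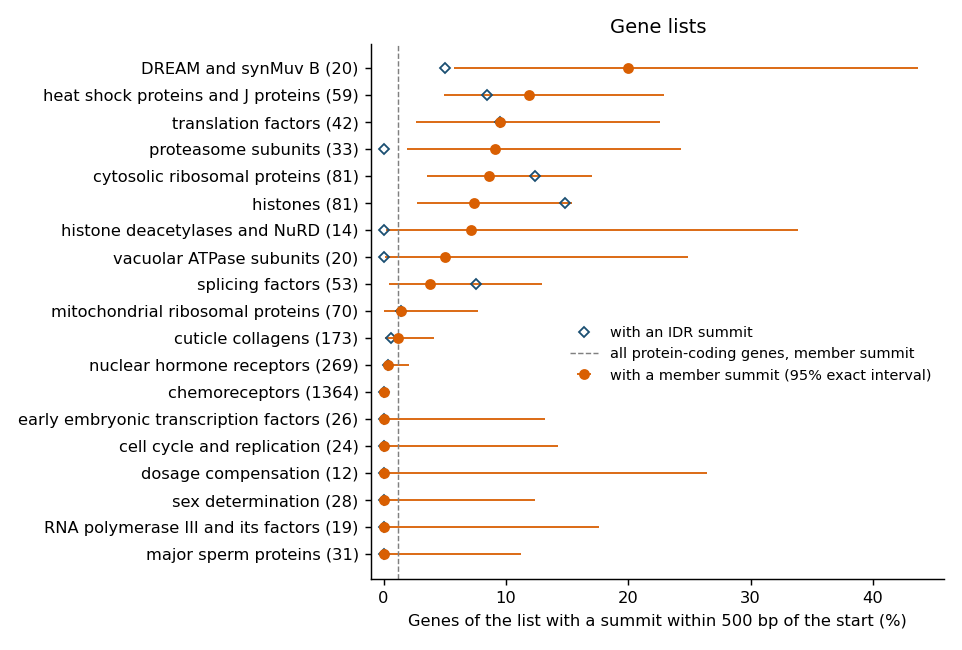
Share of the genes of each list (number of genes in parentheses) with a summit within 500 bp of the start, in percent (x axis). Filled points are members with exact 95% intervals, open diamonds are IDR summits and the dashed line is the 1.2% of all protein-coding genes with a member. The DREAM and synMuv B list has the highest member share, 4 of 20, on few genes, and the sex determination and dosage compensation lists are at 0.

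The list of DREAM and synMuv B genes, repressors that act with the worm's retinoblastoma protein or oppose vulval fates, had a member in 4 of 20 (20%, 5.73 to 43.7) and an IDR summit in 1. The gene lin-52, for a DREAM subunit, had the summit at 384 bp, in an intron (rank 409, III, 9824126 to 9824605), with ranks 466 and 524. The gene lin-53, for a histone-binding protein of both DREAM and NuRD, had it at -221 bp (rank 515), with rank 13341 in replicate 1 and rank 261 in replicate 2. Only replicate 2 ranks it high. The gene lin-54, for the DNA-binding subunit of DREAM, had it at -316 bp (rank 547, ranks 1825 and 434), and lin-61, for a protein with MBT repeats, at -371 bp (rank 576, ranks 410 and 1076). The regions of lin-53, lin-54 and lin-61 are also near the starts of nra-2, rpl-12 and bub-1, in that order.

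The window at lin-54 and rpl-12 is printed because lin-54 encodes the subunit that binds the CHR element TTTGAA, which is in capitals here as its reverse complement.
lin-54, chrIV:13240678-13240778, + strand: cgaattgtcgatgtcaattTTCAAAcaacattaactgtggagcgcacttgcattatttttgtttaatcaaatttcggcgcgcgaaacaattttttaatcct
This element is common: 125 members (20.6%, 17.5 to 24.1) held it on either strand, as did 24.3% of the windows 1000 bp to either side and 24.3% of the tail.

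Genes of the pathway in which TRA-4 acts had no member at their starts. None of 28 sex determination genes and none of 12 dosage compensation genes did, which allows shares of up to 12.3% and 26.5%. With 1.2% of all genes called, such short lists leave no room to fall below the background. The histone deacetylase and NuRD list had lin-53 alone, 1 of 14. The genes tra-4, nasp-1 and hda-1, of which nasp-1 and hda-1 encode partners of TRA-4, had no member at the start or in the gene, and neither had xol-1, the switch gene of sex determination, or unc-119, the marker of the strain. The nearest member to hda-1 was 954 bp away, in another noncoding RNA gene near the start of ril-1 (rank 883). That to xol-1 was 4683 bp away, and those to the other 3 were 23296 to 162367 bp away.

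Of the 22 gene lists, 9 had no member. Beside the 2 named above these were aminoacyl-tRNA synthetases (32 genes), RNA polymerase III and its factors (19), Argonautes (20), F-box, MATH and BTB genes (upper limit 0.930%), major sperm proteins (31), cell cycle and replication genes (24) and early embryonic transcription factors (26). Splicing factors had 2 of 53, lsm-8 (rank 528) and rsp-6 (rank 933). Mitochondrial ribosomal proteins had 1 of 70, mrpl-32 (rank 827). Vacuolar ATPase subunits had 1 of 20, vha-8 (rank 701), in a region shared with C17H12.2. Nuclear hormone receptors had 1 of 269, nhr-255 (rank 574), whose summit was inside a tRNA gene. Cuticle collagens had 2 of 173, dpy-17 at 7 bp (rank 479) and col-85 (rank 567), which lay 204 bp from an IDR summit. The chemoreceptor list had 1 of 1364, srrt-1 (rank 557), a gene named for Serrate that the symbol pattern caught and that is not a chemoreceptor gene.

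Members were spread over all 6 chromosomes, with the fewest on X. The counts were 117 on I, 112 on II, 114 on III, 102 on IV, 82 on V and 79 on X. The X share was 13.0% (10.5 to 16.0), where 14.7% of pooled regions were on X, and X makes up 17.7% of the genome. It was 20.6% (16.7 to 24.9) in the IDR set, 14.8% (12.7 to 17.2) in the next 1000 and 14.5% (13.7 to 15.3) in the tail. Away from these small RNA genes 48 of 515 members (9.32%, 6.95 to 12.2) were on X, against 11.3% (7.28 to 16.4) of such IDR entries and 14.2% (13.5 to 15.1) of those in the tail. There the intervals of the members and the IDR set overlap, and that of the members lies below that of the tail. Of the 67 members near tRNA genes 29 (43.3%, 31.2 to 56.0) were on X, which holds 276 of the 612 tRNA genes. Chromosome V had 13.5% (10.9 to 16.5) of the members for 20.9% of the length.

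**Figure D4:**
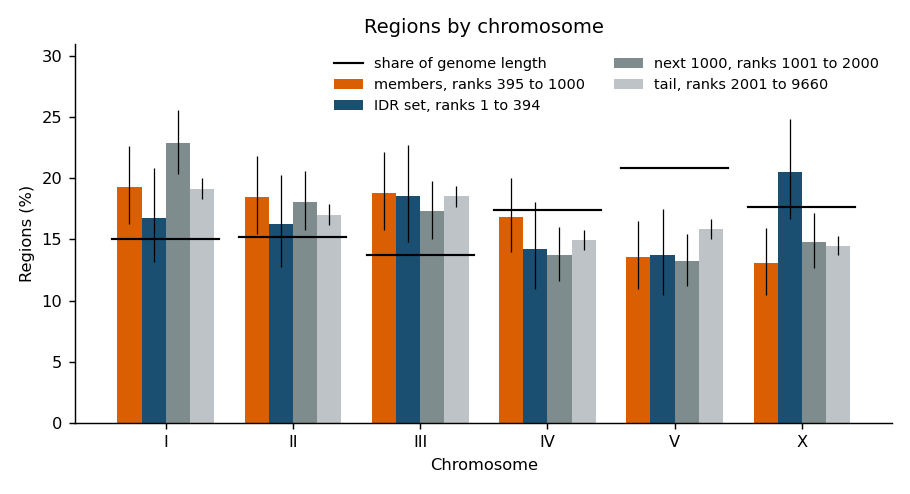
Share of regions in percent (y axis) on each chromosome (x axis) for the 4 ranges of ranks, with exact 95% intervals as bars and the share of the genome's length as a black line. On X the members stand at 13.0% and the IDR set at 20.6%, for 17.7% of the length, and on V all 4 ranges lie below the line.

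Short sequences in members away from small RNA genes were set beside 996 windows 1000 bp from the members. Among all 6-base sequences, taken on both strands as 2080 pairs, AAGAGA had the largest difference, in 13.4% of the 515 members and 7.73% of the flanks. It was in 10.3% of the IDR entries away from small RNAs and 8.54% of the tail. ACGCGC was in 6.21% and 1.2%, and in 10.8% of those IDR entries, 5.06% of the next 1000 and 2.21% of the tail. AGAGAG, which shares letters with AAGAGA, was in 10.1% and 5.22%. These pairs were ranked on the members themselves and have no test, and the members are richer in G and C than the genome.

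Nearly all members had a matching region in both replicate lists, but few were strong in both. A region of replicate 1 overlapped 599 members by at least 1 bp and a region of replicate 2 overlapped 605. Both did so for 598 (98.7%, 97.4 to 99.4), where 63.2% of the pooled list was found in both. The share was 100% in the IDR set, 94.1% (92.5 to 95.5) in the next 1000 and 54.4% in the tail, so it is not particular to the members. The pooled list comes from the same reads, so this match is a description and not a test. The replicate lists hold 19062 and 13957 regions, and the median rank of the match was 1053 in replicate 1 and 763 in replicate 2. In the IDR set these medians were 196.5 and 186.5. The 7 members without a match in replicate 1 ranked 271 to 558 in replicate 2, and the 1 without a match in replicate 2 (rank 753, V, 15002112 to 15002591) ranked 266 in replicate 1.

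Only 141 members (23.3%) were among the 1000 strongest regions of both replicates. Another 46 were among the 394 strongest of replicate 1 and beyond rank 1000, or without a match, in replicate 2. The other way round there were 51. A further 78 had a match beyond rank 1000 in both. These joint counts were made for the members only, so they have no background beside them. By class, members near tRNA starts had median ranks of 641 and 581. Members at protein-coding starts away from small RNAs had 1261.5 and 738, and those in coding exons 969 and 717.5. Of the 67 tRNA members, 9 lay within 1000 bp of an IDR summit, and 29 were in the strongest of the 4 groups by the signal that chose the members. Without members that near an IDR summit, the medians were 731.5 and 613 at tRNA starts, 1302 and 769 at protein-coding starts and 1033.5 and 796 in coding exons.

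**Figure D5:**
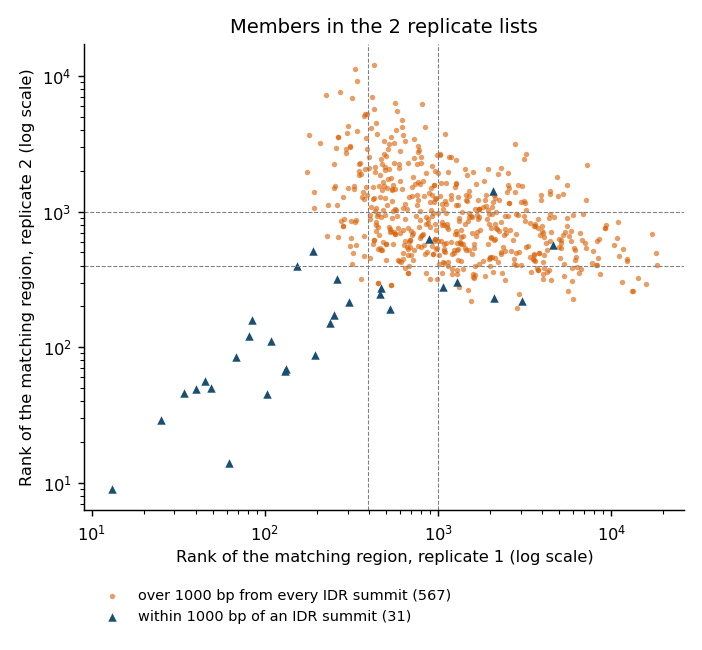
Rank of the matching region in replicate 1 (x axis, log scale) and in replicate 2 (y axis, log scale) for the 598 members found in both, with dashed lines at ranks 394 and 1000. Triangles are the 31 members within 1000 bp of an IDR summit, of which 19 are among the 394 strongest regions of both replicates. The circles are the other members, and 1 of them lies below rank 394 in both.

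The members that stood high in both replicates were almost all neighbours of IDR peaks. The rule leaves little room for others, since the strongest pooled regions are in the IDR set, so nothing is read from this. Of the 20 members among the 394 strongest of both replicates, 19 were among the 31 members within 1000 bp of an IDR summit. The 31 make up 5.12% of the members. In the pooled list, IDR peaks included, 5.65% of regions lay that near, in the next 1000 2.5% and in the tail 1.25%. Of these 31, 27 lay within 300 bp, 26 of them within 250 bp. Over the 31 the shortest distance was 199 bp and the median 204 bp. For 27 members the IDR peak beside them matched the same region in replicate 1 and the same in replicate 2, so their replicate ranks are those of the IDR peak. The 10 members with the lowest sum of replicate ranks were all of this kind. The first was at rank 453 (X, 13665528 to 13666007), 201 bp from the summit of the IDR peak of rank 10, with replicate ranks 13 and 9. Others of the 10 had their summits in coding exons of lem-2, a gene for a protein of the nuclear envelope (rank 772, replicate ranks 45 and 56), and atx-2, the ataxin-2 gene (rank 825, 62 and 14).

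Among the 575 members over 1000 bp from every IDR summit, 1 was among the 394 strongest of both replicates. It was rank 477 (V, 14830541 to 14831020), in a coding exon of ret-1, with the nearest protein-coding start that of nspa-8 (at -3729 bp), and it ranked 358 and 319. It was chosen after its values were seen. Next by rank sum was rank 443 (III, 9052682 to 9053161), in an intron of R107.5, with ranks 319 and 410. Ranks 504 and 539 (III, 343683 to 344162 and 343917 to 344396) overlap each other and matched the same regions, 452 and 298. Such neighbours recur: 17 pairs of adjacent members lay within 1000 bp of each other and 15 of these within 300 bp, so not every member is a separate place.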

How the data were processed

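The 606 members (ranks 395 to 1000) and the gene lists were chosen with earlier results of these data known. The authors deposited peak lists in narrowPeak format for each replicate, for the pooled replicates and for the IDR set, in ce10 and ce11 (ce11 is WBcel235). Each deposited region has a signal value from the authors' caller and a q-value on the −log10 scale, and the column for an unadjusted p-value is unset. No source used here gives the caller, its cutoffs, the aligner or the read depth, so depth is unknown. A control alignment is listed among the sources of the relaxed lists, per the files deposited with them, and was not analysed here. Signal is used only to rank regions within 1 list.

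From these lists the pooled ce11 list was sorted by signal and ranks 395 to 1000 were taken. Coordinates are 1-based. Genes came from Ensembl release 115 (46890 genes on 6 nuclear chromosomes), and the amino acid of a tRNA and all sequences came from RefSeq. A region is near a gene when its summit is within 500 bp of the start. Matching regions overlap by at least 1 bp, and the strongest match counts. Intervals are exact (Clopper-Pearson) 95% and cover counting error only: regions share embryos, and neighbouring regions share reads. No test was run, since there is 1 group and the members were chosen by signal. Counting was checked on simulated data of known position. Python 3.11.15, numpy 2.4.6, pandas 2.3.3, scipy 1.17.1 and matplotlib 3.10.9 were used.

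The rule for named genes took the nearest protein-coding gene of the 15 strongest members and the strongest member of each chromosome. It took every gene with a member in 5 lists, namely dosage compensation, sex determination, DREAM and synMuv B, deacetylases with NuRD, and RNA polymerase III, and the 3 strongest of every other list; 1 further list is not reported here. It also took the 5 strongest members near each small RNA type, the 10 lowest sums of replicate ranks, the entries at both ends, and tra-4, nasp-1, hda-1, xol-1 and unc-119. Genes outside it (rps-23, rps-13, his-37, his-62, ril-1 and those that share a region) and members named for being absent from a replicate were chosen after their values were seen. Alternatives were other distances, windows and overlaps, order by q-value, the stronger 303 members, members that overlap no IDR peak, each replicate alone and the ce10 build.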

Additional observations from a re-analysis of the deposited data

How the results depend on the processing

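Of 51 alternative values computed, 39 stayed within the 95% interval of the value reported. Among the 12 others were the tRNA share of replicate 1's list (7.92%, below 8.67 to 13.8) and of the stronger 303 members. The share far from IDR summits fell outside its interval (92.8 to 96.5) in both single-replicate lists, by q-value order and without IDR overlaps. The rest were the protein-coding and B box shares at other widths, the share in both replicates among the strongest 1000, and the q-value count. From the same ranks of 1 replicate's list, with the other left out, the tRNA share was 7.92% to 10.1%, the snoRNA share 2.31% to 2.48%, the protein-coding share 31.4% to 33.8%, the coding exon share 17.8% in both, the X share 11.4% to 14.4%, the B box share 1.65% to 2.48%, and the share over 1000 bp from every IDR summit 85.8% to 87.3%. Among the stronger 303 members the tRNA share was 15.2%. The protein-coding share was 21% within 250 bp and 48.2% within 1000 bp, the snoRNA share 1.65% and 2.97%, and the B box share was 0.495% in windows of 25 bp to each side and 4.13% in windows of 100 bp, as wider windows take in more. The share far from IDR summits was 91.7% when regions were ordered by q-value, which kept 584 of the members, and 99.3% among members that overlap no IDR peak, which follows from its construction. The share found in both replicates was 23.3% against the 1000 strongest regions of each, and no member had a q-value under 0.01 (a count of 0). No paired analysis was possible because there is 1 group. Depth is unknown, so what depth limits cannot be stated, and small counts such as the list counts rest on single regions.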
